A study of Rattus norvegicus with 6 samples.

Results

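The transforming growth factor beta (TGF-beta) superfamily was followed here through 9 genes: the activin subunit genes Inhba and Inhbb, the ligand genes Tgfb1, Tgfb2, Tgfb3, Bmp2 and Bmp4, and the receptor genes Tgfbr1 and Tgfbr2. A probe set, the group of short oligonucleotides that reports 1 transcript on the array, was taken as a member when the platform annotation gave it exactly 1 of these genes. This rule found 11 of the 8799 probe sets, for 8 of the 9 genes. No probe set was named for Tgfbr2, which is not analysed here. The tissue was the dorsolateral prostate of the male ACI rat, which is an inbred strain, and the study asked how a long diet rich in corn oil bears on gene expression in this tissue. The 2 groups were rats fed a high corn oil diet and rats fed a low corn oil diet, which the series design calls the control, with feeding over 18 months. The labels also give 18 months as the age of every rat. Each diet had 3 rats with 1 array each, called High 1 to High 3 and Low 1 to Low 3 after the replicate numbers of the labels, and the amount of oil in either diet is not given in the sources used here. High 3 carries a free description that names the low diet. Its title and source name place it in the high group, where it was kept.

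Ligands of this superfamily are secreted as dimers that bring together serine/threonine kinase receptors, which phosphorylate SMAD transcription factors. TGF-beta and activin act mainly through SMAD2 and SMAD3, bone morphogenetic proteins (BMPs) mainly through SMAD1 and its close relatives, and all of them share SMAD4. In the prostate, TGF-beta is known for restraining epithelial growth and for driving matrix production in the stroma, activin A for inhibiting growth of prostate epithelial cells, and BMP4 for limiting ductal branching in development.

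Values are intensities in the linear units deposited, scaled to the same trimmed mean of 2503 or 2504 on every array. Between 18.6% and 23.1% of the values on an array were at or below 0, so a low intensity says little about whether a transcript was present. High 1 resembled the low corn oil arrays (Spearman correlations across tested probe sets of 0.928 to 0.950) more than High 2 and High 3 (0.869 and 0.881). The bacterial spike-in controls, added to each hybridization, cut across the diets: their mean log2 signal was 13.9 to 14.4 on the arrays High 1, Low 1 and Low 2, and 12.6 to 13.2 on the other 3. Luminal epithelial content was described by 6 markers, among them the secretory genes Pbsn, Msmb and Sbp, all of which passed the filter on low values described next. Single markers were uneven between arrays. Pbsn was at 99574, 19851 and 21926 in High 1, High 2 and High 3, and at 78113 to 82039 in the low group. Sbp ran from 1891 to 53056 in the high group and from 6801 to 39729 in the low group. The keratin genes among the markers were more even. Krt8 was at 11346 to 15529 in the high group and 12241 to 14803 in the low group. Krt18 was at 23695 to 34742 and 29874 to 32431.5 in the same order. The lobe of origin was not tested with the 6 markers. The summed intensity of the 6 markers was 161987 to 256592 in the high group and 226165 to 267091 in the low group. Under the high diet 2 markers were higher and 4 lower, with none past the adjusted threshold of limma. Genes of the neighbouring seminal vesicle were also detected, with a summed intensity over 3 markers of 64570 to 111579 in the high group against 90099 to 118591 in the low group. Their directions were mixed: the log2 difference, high minus low, was 1.04 for Svs3a, -0.019 for Svs4 and -0.54 for Semg1. Second probe sets of Svs4 and Semg1 were at 0.11 and 0.04. None of the 3 markers passed the adjusted threshold.

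Of the 11 probe sets, 5 passed the filter on low values (a mean over the 6 arrays of at least 343) and were tested: 1 each for Inhba, Inhbb and Tgfb2 and a pair for Tgfb3. The other 6, for Tgfb1, Bmp2, Bmp4 and Tgfbr1, were too dim and are given by their values. None of the 5 passed limma's test at an adjusted p of 0.05. Over all 5244 tested probe sets limma called 0 (0%), with 522 (9.95%) at an unadjusted p under 0.05, among them 1 of the 5 members, Inhba. With groups of 3, no tested member had diets that were fully separate, against 15.5% of all tested probe sets.

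**Figure D1:**
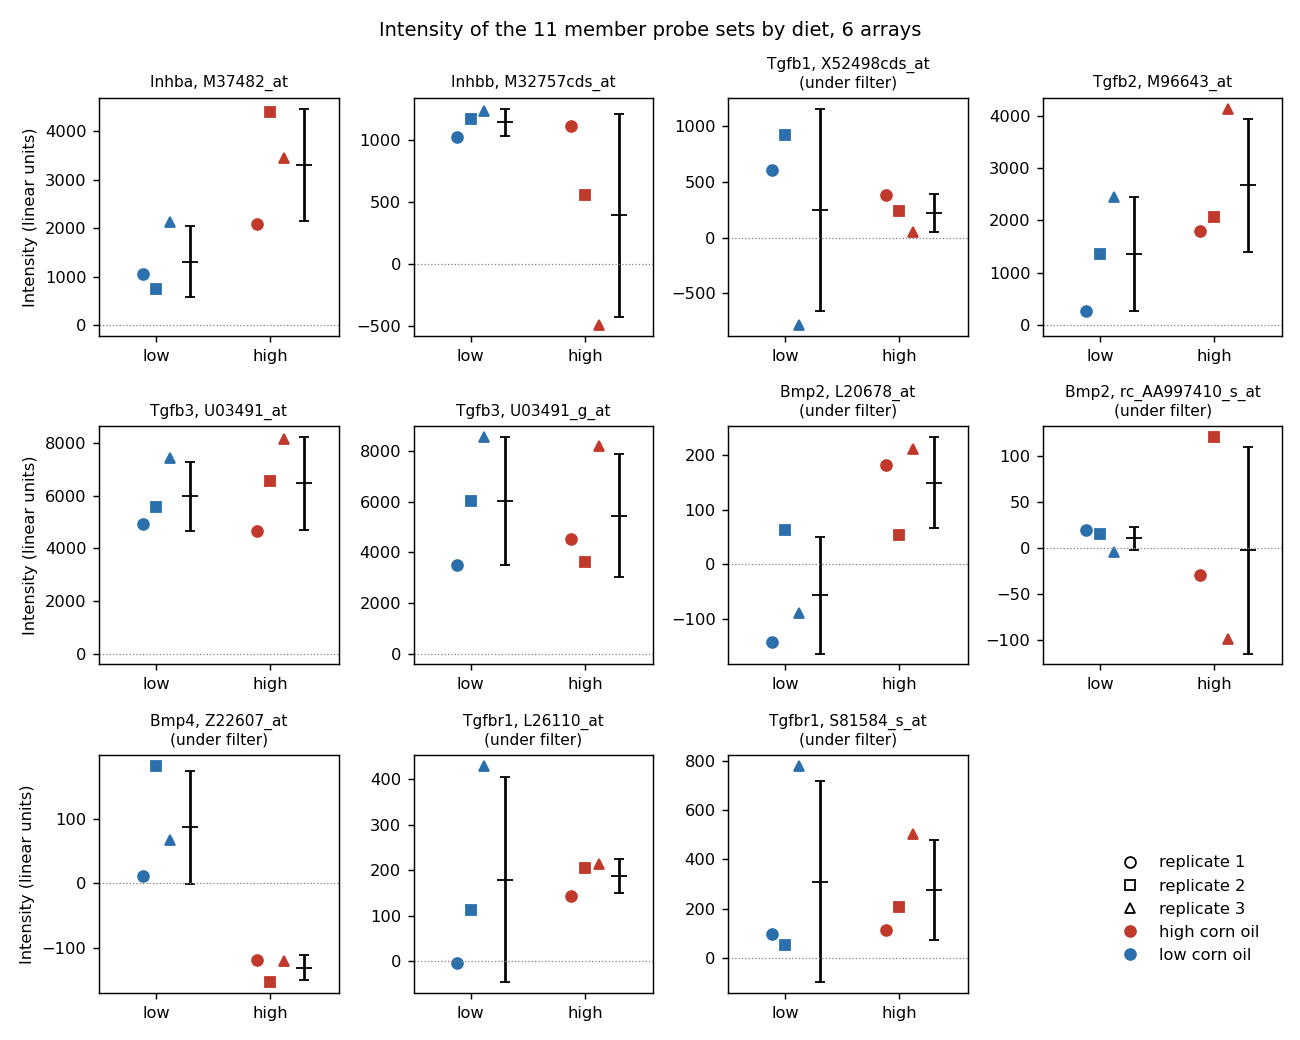
Intensity (linear units) of each of the 11 member probe sets on the 6 arrays, with low corn oil in blue and high corn oil in red; each symbol is 1 rat, and the black bar gives the mean ± SD of 3. Inhba was at 2076 to 4386 in the high group and 750.4 to 2135 in the low group, and Bmp4 was below 0 on the 3 high corn oil arrays.

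Inhba, which encodes the beta A subunit that forms activin A, was higher on average under the high diet, and it was the tested member with the smallest unadjusted p. Its intensity was 2076, 4386 and 3437.5 in High 1, High 2 and High 3, and 1047, 750.4 and 2135 in Low 1, Low 2 and Low 3. The groups overlapped through a single pair of arrays, the lowest high corn oil array lying just under the highest low corn oil array. The means were 3300 ± 1161 (SD, n = 3) and 1311 ± 729 (SD, n = 3). On the scale of log2(intensity + 156), the difference, high minus low, was 1.29 ± 0.40 (SE), with a 95% interval of 0.35 to 2.22. The limma adjusted p was 0.462 (unadjusted 0.0136, the 151st smallest of 5244), so Inhba did not pass. Leaving out any 1 array gave differences of 1.00 to 1.67, and the adjusted p over the alternative settings ran from 0.0616 to 0.998.

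Inhbb, which encodes the beta B subunit of activin B, had its lowest values under the high diet. It was at 1111, 554 and -492.5 in High 1, High 2 and High 3, against 1021, 1169 and 1232 in Low 1, Low 2 and Low 3. The low corn oil arrays lay close together, and High 1 lay among them. The log2 difference was -1.32 ± 0.70 (SE), with a 95% interval of -2.97 to 0.34 and a limma adjusted p of 0.522. Its size rested on High 3: it was -0.45 without that array, 0.32 if the array was counted as low, and -2.54 where the value below 0 was kept through an asinh transformation. Without High 1 it was -1.96 (limma adjusted p = 0.123), and with array weights -2.04 (0.0861).

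DNA before an annotated start of both activin subunit genes is shown because Inhba and Inhbb gave the largest log2 differences, in opposite directions, among the tested members. The 250 bases upstream of the annotated start, from the RefSeq promoter table of the GRCr8 rat genome, are at chr17:53804509-53804758 (minus strand) for Inhba and chr13:33089374-33089623 (minus strand) for Inhbb. The table gives 1 start per gene. For Inhbb it is the outer end of the annotated gene, whereas for Inhba it lies inside the annotated gene, which spans chr17:53787159-53810942, so the Inhba stretch precedes 1 internal start and not the outermost one. Capitals mark matches, on either strand, to any of 5 motifs. The first is the TATA box, searched as TATAAA, and the second the CCAAT box, searched by those letters. The third pattern, which takes in the cAMP response element, was TGANGTCA. The AP-1 site was searched as TGANTCA, and the GC box that Sp1 binds as GGGCGG.
Inhba: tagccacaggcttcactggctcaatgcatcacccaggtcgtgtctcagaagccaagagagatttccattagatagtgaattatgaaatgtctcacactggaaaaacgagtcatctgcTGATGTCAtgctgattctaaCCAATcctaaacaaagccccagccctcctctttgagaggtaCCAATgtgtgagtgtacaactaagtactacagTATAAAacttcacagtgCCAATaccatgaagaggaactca
Inhbb: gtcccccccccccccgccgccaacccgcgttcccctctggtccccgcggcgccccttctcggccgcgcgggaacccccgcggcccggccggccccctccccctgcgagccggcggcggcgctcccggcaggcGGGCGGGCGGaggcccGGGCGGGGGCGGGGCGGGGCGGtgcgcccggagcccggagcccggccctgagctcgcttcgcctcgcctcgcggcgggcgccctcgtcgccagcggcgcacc

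The Inhba stretch was 43.6% G and C and held 1 TATAAA (40 bases before the start), 3 CCAAT and 1 TGANGTCA, with no GGGCGG or TGANTCA. The Inhbb stretch was 86.8% G and C and held 6 matches to GGGCGG, some of which overlap each other, and none of the other motifs. Over all 33469 promoters in the table the median G and C share was 51.2%, TATAAA was present in 12.9%, CCAAT in 34.0%, TGANGTCA in 8.88%, TGANTCA in 6.34% and GGGCGG in 30.5%. The arrays measured no binding at these stretches, and a match is a description of the letters.

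Tgfb2, a ligand gene of the TGF-beta branch, was higher on average under the high diet, with groups that overlapped. It was at 1806, 2060 and 4129 in High 1, High 2 and High 3 and at 278, 1352 and 2441 in Low 1, Low 2 and Low 3. The lowest value, in Low 1, stood well under the other 5. The log2 difference was 1.15 ± 0.64 (SE), with a 95% interval of -0.36 to 2.66 and a limma adjusted p of 0.530. It was 0.42 without Low 1 and 0.34 if High 3 was counted as low.

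Tgfb3 gave a high intensity on every array, and its diet means lay close together. Its first probe set (U03491_at) was at 4659, 6571 and 8157 in High 1, High 2 and High 3 and at 4919, 5566 and 7425 in Low 1, Low 2 and Low 3. Its second (U03491_g_at), from the same transcript record, was at 4538, 3608 and 8211 and at 3502, 6048 and 8549 in the same order. Replicate 3 of either diet was the highest of its group on both probe sets. The log2 differences were 0.097 ± 0.25 (SE) and -0.14 ± 0.39 (SE), with 95% intervals of -0.48 to 0.67 and -1.06 to 0.78 and limma adjusted p of 0.882 and 0.894. The direction turned in several settings, so none is given for Tgfb3.

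Tgfb1, the most studied ligand gene of the family, was under the filter. Its probe set, built on the coding sequence, read 387, 237 and 45.7 in High 1, High 2 and High 3 and 604, 927 and -788 in Low 1, Low 2 and Low 3. High 1, High 2 and High 3 lay inside the range of the low corn oil arrays. The means were 223 ± 171 (SD, n = 3) and 248 ± 911 (SD, n = 3). The low mean depended on Low 3, and without that array the mean difference, high minus low, moved from -24.2 to -542 units. Without Low 2 it was 315 units, so no direction is given for Tgfb1.

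Bmp4, the BMP gene that opposes duct branching in prostate development, was the only member whose diets did not overlap. It read -118.7, -152.8 and -119.8 in High 1, High 2 and High 3 and 10.8, 182 and 66.8 in Low 1, Low 2 and Low 3. All 3 high corn oil arrays were below 0 and all 3 low corn oil arrays above it, with none reaching the filter. Among the 3496 probe sets under the filter, 16% had diets that did not overlap and 11% had them with the high diet lower, so the separation of 1 in 6 dim members is near that background. No fold is given, since the high corn oil group was below 0. With no filter, limma gave Bmp4 an adjusted p of 0.611, in a fit that called 0.103% of all probe sets and none of the 11 members.

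Bmp2, a BMP gene best known for inducing bone, was read by 2 probe sets that were both near 0. One (L20678_at) was at 183, 54.4 and 212 in High 1, High 2 and High 3 and at -143.5, 63.3 and -90.1 in the low corn oil arrays. It was above 0 on all high corn oil arrays and on 1 of 3 low ones, and the groups overlapped between High 2 and Low 2. The other (rc_AA997410_s_at) ran from -99.9 to 121 in the high group and from -4.1 to 19.6 in the low group. With no filter the first had a limma adjusted p of 0.563 (unadjusted 0.0390) and the second 0.845.

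Tgfbr1, the kinase receptor that passes the TGF-beta signal to SMAD2 and SMAD3, was dim on both of its probe sets. The first (L26110_at) was at 144, 204 and 214 in High 1, High 2 and High 3 and at -4.4, 112 and 429 in the low corn oil arrays. The second (S81584_s_at) was at 113, 208 and 502 and at 95.7, 54.0 and 779 in the same order. On both probe sets Low 3 was the highest of the 6 arrays, and the high corn oil values lay inside the range of the low ones. Mean intensities in the high and low groups were 187 ± 37.9 (SD, n = 3) and 179 ± 225 for the first and 274 ± 203 and 310 ± 407 for the second.

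**Figure D2:**
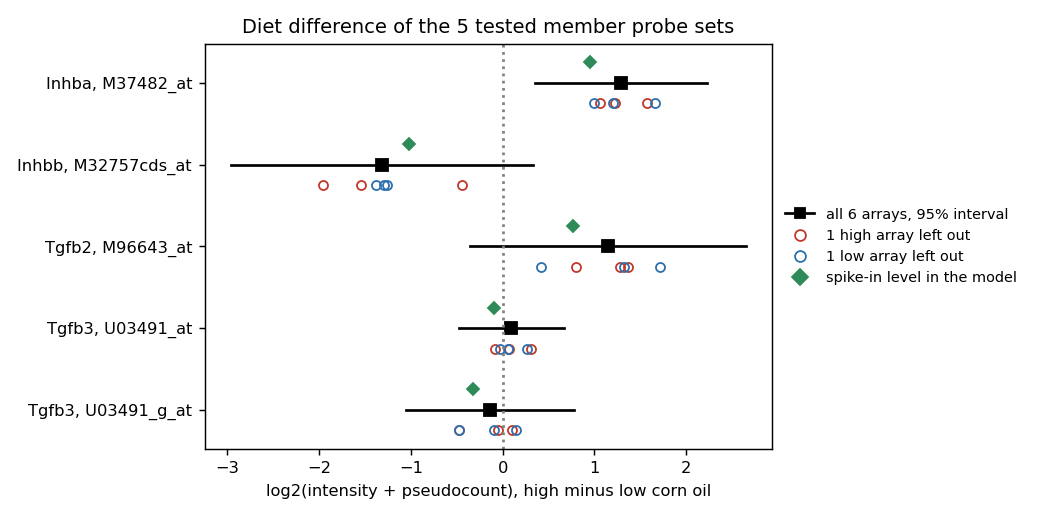
Difference between diets (log2 scale, high minus low corn oil) of the 5 tested member probe sets: black squares and lines give the estimate from 6 arrays with its 95% interval, open circles the estimate with 1 array left out, and green diamonds the estimate with spike-in level in the model. Inhba stayed between 1.00 and 1.67 with 1 array left out, while Inhbb ran from -1.96 to -0.45 and Tgfb2 from 0.42 to 1.71.

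Several members were ordered by the spike-in signal of the array. In Inhba, Tgfb2 and the first Tgfb3 probe set, the 3 arrays with low spike-in signal were all above the 3 with high signal. The same held for both dim probe sets of Tgfbr1, and the reverse for Tgfb1. These are 3 of 5 tested and 3 of 6 dim members, against 24.1% of all tested and 21.5% of all dim probe sets separated in either direction. In a limma model with diet and spike-in level together, the difference between arrays of low and high spike-in signal was 0.99 ± 0.21 (SE) for Inhba (adjusted p = 0.241) and 1.17 ± 0.56 for Tgfb2 (0.410). It was 0.56 ± 0.15 (0.290) and 0.56 ± 0.38 (0.538) for the probe sets of Tgfb3 and -0.89 ± 0.72 (0.603) for Inhbb. Over all tested probe sets limma called 0 (0%) for spike-in level, with 696 (13.3%) at an unadjusted p under 0.05. This comparison was added with the data in view.

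With the arrays split by spike-in signal, Inhba was higher in the high corn oil arrays of either group. Among arrays of high signal it was 2076 in the high corn oil array against 1047 and 750.4 in the low ones, and among arrays of low signal 4386 and 3437.5 against 2135. The log2 differences in these groups were 1.10 and 0.82, and the model with both terms gave 0.96 ± 0.21 (SE) for diet (limma adjusted p = 0.555, unadjusted 0.00338). In that model limma called 0 of all tested probe sets (0%), and 8.3% had an unadjusted p under 0.05 for diet. Tgfb2 differed by 1.28 and 0.25 in the arrays of high and low signal, Inhbb by 0.021 and -2.06, the first Tgfb3 probe set by -0.16 and -0.020, and the second by -0.021 and -0.63. In each of these groups of 3 arrays 1 diet has a single array, and no test was run within them. The spike-in signal also varied inside the groups: High 2, with the lowest signal of all (12.6), had the highest Inhba value. The split therefore cannot set diet apart from spike-in level.

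**Figure D3:**
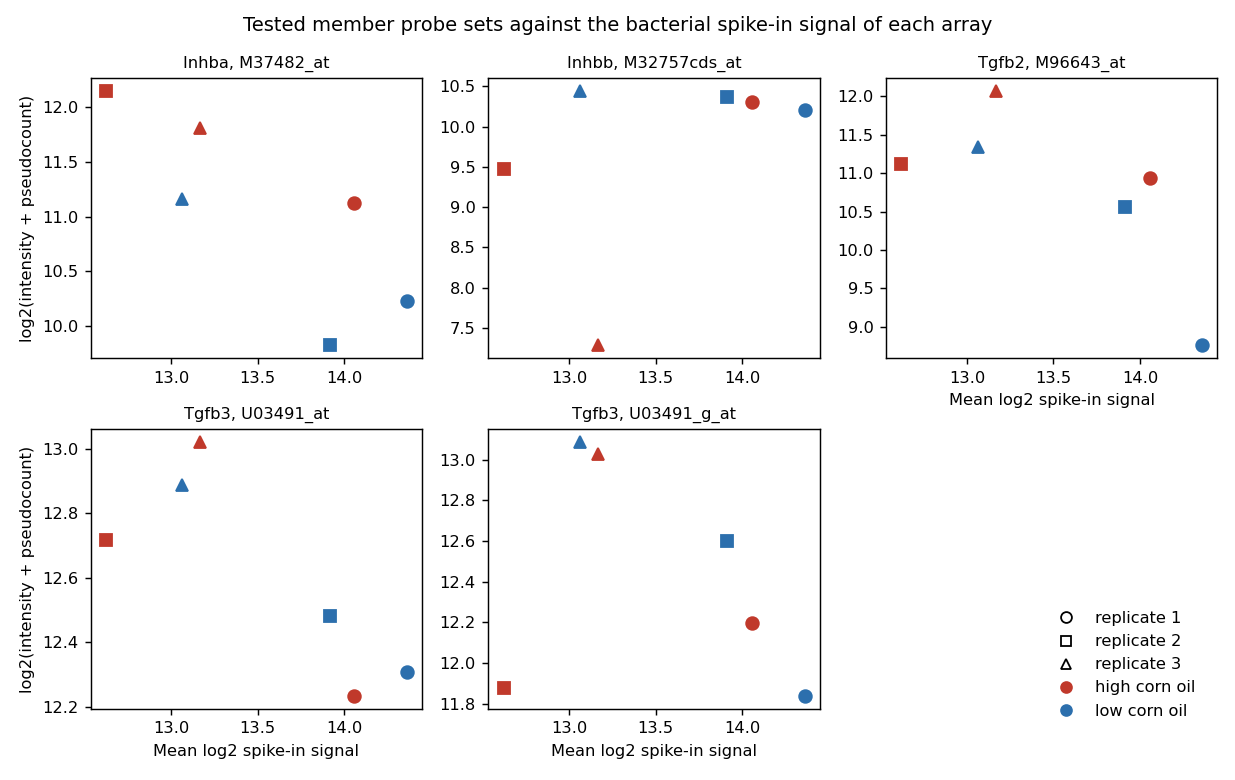
Level of the 5 tested member probe sets, as log2(intensity + 156), against the mean log2 signal of the bacterial spike-in controls on the same array; colours give the diet and symbols the replicate number. In the Inhba panel the 3 arrays with spike-in signal of 12.6 to 13.2 lie above the 3 at 13.9 to 14.4, and within either set the high corn oil arrays are the higher ones.

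Other genes of the pathway were taken from 6 lists, with 1 probe set per gene, that of the highest mean. None of their 48 tested genes passed limma's adjusted threshold in either direction, and 5 had an unadjusted p under 0.05, a share near the 9.95% of all tested probe sets. The median log2 difference over all tested probe sets was 0.032, and 53.9% of them were higher under the high diet. Among 5 further ligand genes, 3 were higher and 2 lower, with a median of 0.012. The inhibin alpha gene Inha, whose product pairs with the activin beta subunits to form inhibin, was at 0.64 ± 0.33 (SE), and its second probe set was at -0.12 ± 0.28. The anti-Mullerian hormone gene Amh was at -0.81 ± 0.55 and Gdf10, a BMP-like ligand gene, at 0.27 ± 0.29. Without High 3, Inha was at 0.34 and Amh at -0.17, and without High 2 Gdf10 was at 0.034.

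Of 8 further receptor genes, 3 were higher and 5 lower, with a median of -0.12. The co-receptor gene Tgfbr3, whose product betaglycan presents TGF-beta 2 to its receptors, was at 0.48 ± 0.38 (SE) and 0.52 ± 0.33 on its pair of probe sets. Acvr1c, a receptor gene for activin B and nodal, was at -0.91 ± 0.65 and -1.50 ± 0.44, and Amhr2, the receptor gene for anti-Mullerian hormone, at -1.02 ± 0.65. The first Tgfbr3 probe set was at 0.16 without High 3, the first of Acvr1c at -0.48 without Low 1, and Amhr2 at -0.21 without High 2, its only array below 0. Of 5 SMAD and nuclear partner genes, 3 were higher and 2 lower, with a median of 0.044. Smad4, the shared SMAD, was at 0.34 ± 0.42. Smad2 was at 0.22 ± 0.19, 0.27 ± 0.25 and -0.44 ± 0.28 on its 3 probe sets, and Sp1, a general transcription factor gene, at -1.23 ± 0.67. Without High 2, Sp1 was at -0.53 and the first Smad2 probe set at 0.11, and without Low 1 Smad4 was at 0.021.

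Of 13 genes for extracellular activators and inhibitors, 8 were higher and 5 lower, with a median of 0.0047. Dcn, the proteoglycan decorin that binds TGF-beta, averaged 35404 ± 8353 (SD, n = 3) in the high group and 52684 ± 1902 in the low group. Its log2 difference was -0.60 ± 0.19 (SE, limma adjusted p = 0.462), and its other probe sets were at -0.53, -0.44 and 0.09. Fstl1, a follistatin-like secreted protein gene, was at -0.47 ± 0.17. Itgav, the integrin alpha V subunit gene whose dimers release latent TGF-beta, was at 1.28 ± 0.51, with means of 796 and 234. It passed the filter of 343 only through its high corn oil values. The lowest of these, 365 in High 1, lay just above 350.6 in Low 2. Leaving out 1 array gave Itgav differences of 0.88 to 1.66. Dcn, Fstl1 and Itgav had diets that did not overlap, 3 of the 13 genes against 15.5% of all tested probe sets. They were named for the smallest p of the list. Follistatin (Fst), the secreted inhibitor that binds activin, was singled out after its values were seen. It was at 1461, 1198 and 48.9 in High 1, High 2 and High 3 and at 1634, 2022 and 1433 in Low 1, Low 2 and Low 3. High 3 alone stood far below the rest. The log2 difference was -1.26 ± 0.74 (SE, limma adjusted p = 0.538) and -1.09 ± 0.50 on the second probe set, and the first was at -0.31 without High 3, the array that was also lowest for Inhbb.

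Of 12 genes commonly induced by TGF-beta, 10 were lower and 2 higher under the high diet, with a median of -0.34 that was -0.11 without Low 1. Pmepa1, a target that feeds back on SMAD signalling, was at 3474, 1497 and 1517 in High 1, High 2 and High 3 and at 4370, 3538 and 4489 in Low 1, Low 2 and Low 3, a log2 difference of -0.98 ± 0.32 (SE, limma adjusted p = 0.475). The high corn oil values were all below the low ones, but High 1 only just. Col1a2, a collagen I chain gene, was at -0.53 ± 0.23 (-0.31 without Low 1) and Junb, an AP-1 subunit gene, at -1.06 ± 0.45, with its second probe set at -2.35 ± 0.82. Without High 1, Pmepa1 was at -1.36 and Junb at -1.63 (limma adjusted p = 0.0219 and 0.0208), in a comparison where 4.08% of all tested probe sets passed. Dcn then passed too, at -0.77 (limma adjusted p = 0.0428). In that comparison High 2, High 3 and Low 3 had low spike-in signal, and Low 1 and Low 2 had high signal. The part of spike-in level in it was not tested. With every array kept and spike-in level in the model, the differences were -0.83 for Pmepa1, -0.72 for Junb and -0.50 for Dcn. Their limma adjusted p for diet was 0.591, 0.592 and 0.583. The highest of the 12 was Sparc, a matricellular protein gene, at 0.67 ± 0.36 and at 0.37 without Low 1, also singled out after its values were seen.

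This list shares 5 of its genes with the fibroblast and smooth muscle markers, and the median of the other 7 was -0.29. On the 1 probe set taken per gene, all 7 tested fibroblast markers were lower under the high diet, with a median of -0.63. Other probe sets were at -0.57, 0.04 and -0.11 for Col1a1 and at -0.53, -0.44 and 0.09 for Dcn. That of Thy1 was at -0.73 and that of Col3a1 at -0.53. The summed intensity was 57466 to 78434 against 89997 to 125568. Dcn alone gave 27404 to 44070 against 50987 to 54740 of it. No fibroblast marker was at or below 0 on all arrays. Of 8 smooth muscle markers 7 were lower (median -0.30, sums of 133907 to 169279 against 163060 to 201446), and all 3 tested macrophage markers were lower (median -0.75, sums of 7843 to 9367 against 12649 to 16936). All 5 tested skeletal muscle markers were lower (median -0.33), Tnnt3 by only -0.042. Their sums were uneven, at 16475 to 37562 in the high group against 26472.5 to 32354 in the low group. The low sums thus lay inside the range of the high ones. Both basal epithelial markers were higher (median 0.20). No marker of these lists passed the adjusted threshold of limma. The part of these cell types in the values of the target genes was not tested. In whole tissue, fewer cells of a type and less RNA per cell cannot be told apart.

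Genes commonly induced by BMPs were lower in 4 of 5 cases, with a median of -0.22. The median was 0.037 without High 3 and 0.22 if High 3 was counted as low, so no direction is given for this list. Msx2, a homeobox gene, was at 1208, 2883 and 1266 in High 1, High 2 and High 3 and at 1016, 849.6 and 917 in Low 1, Low 2 and Low 3, a log2 difference of 0.74 ± 0.33 (SE, limma adjusted p = 0.501). Without High 2 the difference was 0.365. Id2 and Id3, genes for inhibitors of helix-loop-helix factors, were at -0.61 ± 0.43 and -0.55 ± 0.48. Both were highest in Low 1, at 8483 and 10228, and were at -0.15 and -0.15 without it.

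**Figure D4:**
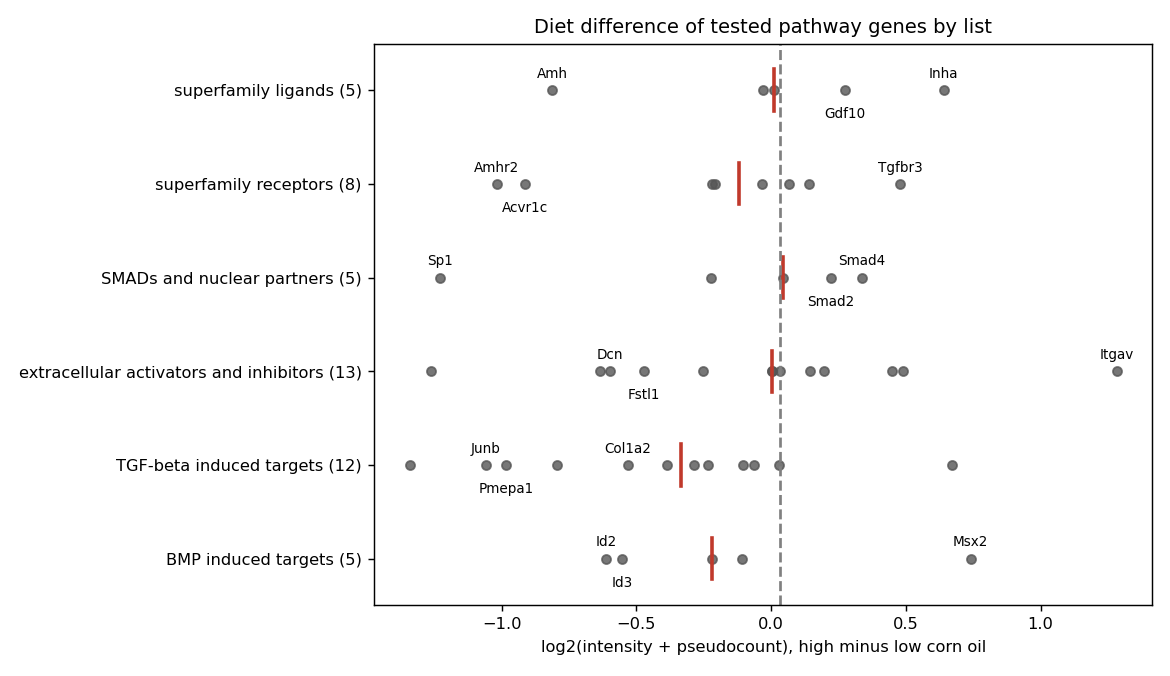
Log2 difference between diets (high minus low corn oil) of the tested genes in 6 pathway lists, 1 point per gene with the number of genes in parentheses, the list's median in red and the median of all tested probe sets (0.032) as a dashed line. Named are the 3 genes of each list with the smallest unadjusted p; 10 of the 12 genes induced by TGF-beta lie below 0.

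The probe sets most like Inhba over the 6 arrays were those of Cds1, a phospholipid synthesis enzyme gene, Mc3r, a melanocortin receptor gene, and Dpys, a pyrimidine breakdown enzyme gene, with Pearson correlations of 0.990, 0.988 and 0.983. For the first Tgfb3 probe set, the member with the highest mean, they were Bcl2l1, an inhibitor of cell death, Espn, an actin-bundling protein gene, and Cyp27a1, a sterol hydroxylase gene, at 0.985, 0.984 and 0.975. A correlation of at least 0.9 was reached by 163 probe sets for Inhba and by 48 for Tgfb3. With 6 arrays that share spike-in level and diet, these are descriptions of the arrays.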

How the data were processed

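Per the labels' protocols, Trizol was used for total RNA, from which biotin-labelled cRNA was hybridized to short-oligonucleotide arrays. The deposited values are on a linear intensity scale, with the same trimmed mean (2% off each end) on every array by their values; how they were scaled is not given in the sources used here. The submitters' processing notes name MAS5 without version or settings. Signals from that algorithm are normally above 0, whereas many deposited values are below it, so the algorithm behind them is uncertain. Detection calls were not used here. Exactly 1 gene was annotated to 7006 of 8799 probe sets, and 6985 of these took a GRCr8 symbol through the gene identifier. Probe sets with several genes (308), none (1426) or controls (59) named no gene.

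Negative values became 0 before log2(value + 156), the pseudocount being the median value of 624.6 divided by 4, so differences of dim genes are understated. Probe sets with a mean of at least 343, the 40th percentile, entered limma 3.58.1 in R 4.3.3 (intensity trend, both directions, no covariate), with Benjamini-Hochberg adjustment over all 5244. The code of the fit was checked on simulated data with independent arrays, which lack the likeness between arrays seen here. Having only 3 arrays a diet limits precision. Identical values made up at most 0.0568% between any pair of arrays. The members and lists were chosen with earlier results of these data known. Named genes are the members and the 3 genes with the smallest p in each pathway list. Alternatives changed the pseudocount, filter, normalization, trend, array weights, the group of High 3, the treatment of negative values, a replicate block and a covariate for spike-in level, and left out each array.

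The labels' replicate numbers mark separate rats. Deviations from the diet means correlated at -0.054, -0.20 and 0.18 between arrays of the same number, and at -0.16 to 0.27 between arrays of different number. With 3 arrays a diet these values cannot exclude a pairing. The main fit did not pair the arrays.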

Additional observations from a re-analysis of the deposited data

How the results depend on the processing

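No member probe set passed limma's adjusted threshold in any setting tried, each array left out in turn included (0 to 0). At an unadjusted p under 0.05 the count of members was 1 with the settings of the report. It was 2 with no filter, with array weights and with the replicate number as a block, 0 if High 3 was counted as low, and 1 to 2 with 1 array left out. The replicate block brought in Tgfb2 at an unchanged difference of 1.15 (limma adjusted p = 0.405), called no probe set, and gave an unadjusted count over all probe sets of 554 against 522. Over all probe sets, limma called 9 with no filter and 0 to 214 with 1 array left out, the highest without High 1. The unadjusted count was 347 with the filter at the 60th percentile, where fewer probe sets are tested, 1534 with array weights, 75 if High 3 was counted as low, and 253 to 1363 with 1 array left out.

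The sign of the first Tgfb3 probe set turned with spike-in level in the model (-0.091) and if High 3 was counted as low (-0.20), and its value ran from -0.085 to 0.31 with 1 array left out. The second turned with array weights (0.043) and ran from -0.47 to 0.15 with 1 array left out. Counting High 3 as low also turned Inhbb (0.32), Fst (0.48), Amh (0.35), Id3 (0.15) and Tgfbr3 (-0.12). The cause was not tested.

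List medians moved by more than the spread between arrays with the filter at the 60th percentile (SMADs 0.28, extracellular regulators -0.25, receptors 0.065), where fewer genes remain. The extracellular list also moved with array weights (-0.13) and if High 3 was counted as low (0.15), and ran from -0.14 to 0.082 with 1 array left out. The receptor list ran from -0.29 to -0.014, the TGF-beta target list from -0.54 to -0.11 and the BMP target list from -0.63 to 0.037. The BMP target median was 0.22 if High 3 was counted as low. Signal over background limits the dim members, since 18.6% to 23.1% of the values on an array were at or below 0.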
